A study of Mus musculus with 6 samples.

Results

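Keratins are the intermediate filament proteins of epithelial cells, and 6 of their genes mark the layers of the epidermis: Krt5, Krt14 and Krt15 in basal keratinocytes, and Krt1, Krt10 and Krt2 in the suprabasal layers. They were read by their gene symbols from a count table of 22295 mouse genes, of which 21681 had a count and were tested, and all 6 were present and tested. The table holds 48 keratin genes in all.

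A keratin filament is built from pairs of 1 type II and 1 type I chain. KRT5 (type II) pairs with KRT14 (type I) in cells attached to the basement membrane, and KRT15 is a further type I chain of basal cells that is also known as a marker of the hair bulge (HB), the niche of hair follicle stem cells. When a keratinocyte leaves the basal layer and becomes a spinous cell, it turns to KRT1 (type II) and KRT10 (type I), and KRT2 (type II) is added in the upper suprabasal cells. The ratio of spinous to basal keratin transcripts is therefore a common reading of how far a keratinocyte population has moved from basal to suprabasal.

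The 6 libraries came from FACS-sorted GFP-positive keratinocytes of mouse back skin epidermis, FVB strain by the labels and FVB/N by the study's methods, 1 mouse per library. WT mice (n = 3) were K19(Cre-ERT); mTmG, and KO mice (n = 3) were K19(Cre-ERT); mTmG; Itga3 fl/fl, so the reporter mTmG and the Cre are carried by both groups. Cre-ERT is a recombinase that acts after tamoxifen, here in cells that use the promoter of K19 (an HB keratin), where it switches the cell and its progeny to GFP and, in KO mice, deletes a floxed part of Itga3, the gene of the integrin α3 subunit. Both groups received tamoxifen at 6 weeks of age for 4 days by the sample labels (the study's methods give another age and dose), 30 μg of the carcinogen DMBA in 200 μl acetone at 7 weeks, and then the growth promoter TPA at 12.34 μg per application for 2 weeks. All 6 libraries thus carry Cre, tamoxifen and DMBA/TPA, and none shows keratin levels in untreated skin. The comparison of KO with WT asks how these HB-derived keratinocytes differ when the integrin is missing.

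Depth was 20578309 to 23670507 counts per library, and the libraries are called WT a, b, c and KO a, b, c in the order of the table. Itga3 itself stood at 371, 252 and 271 CPM (counts scaled to a common library size, with TMM factors) in WT and at 131, 124 and 134 in KO, with a log2 fold change of -1.20 (SE 0.13, edgeR adjusted p = 0.00283), so its level checks the labels. WT b resembled the others least, with a mean correlation of 0.988 against 0.990 to 0.992 for the rest (log2 CPM over all genes), and results that rest on it are given below with and without it. Markers of the labelled HB cells were present in every library, led by Postn, with summed levels of 8 bulge genes of 6517 to 10200 CPM in WT and 5154 to 6127 in KO, and Cd34 was lower in KO. Summed levels of 6 fibroblast genes were 116 to 178 CPM in WT and 48.1 to 80.3 in KO, led by Col1a1, with Lum at or below 3 counts. Gene by gene the direction was mixed, with a log2 fold change above 0 in 3 of these 6 genes and below 0 in 3. Immune genes (8, led by Cd74, with Lyz2 at or below 3 counts) summed to 9.16 to 15.7 CPM in WT and 10.9 to 14.8 in KO, melanocyte genes (6, led by Dct) to 7.71 to 15.5 and 11.9 to 13.3, and endothelial genes (4, led by Tek, with Cdh5 at or below 3 counts) to 5.56 to 8.67 and 3.70 to 4.97.

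The 3 type II genes lie on chromosome 15 and the 3 type I genes on chromosome 11, all on the minus strand (GRCm38). Krt5 (ENSMUSG00000061527) spans chr15:101707070-101712891, Krt2 (ENSMUSG00000064201) chr15:101810689-101818169 and Krt1 (ENSMUSG00000046834) chr15:101845428-101850786, each with 9 exons. Krt10 (ENSMUSG00000019761) spans chr11:99385254-99389364, Krt15 (ENSMUSG00000054146) chr11:100131758-100135928 and Krt14 (ENSMUSG00000045545) chr11:100203162-100207548, each with 8 exons. The type I genes share their chromosome with Itga3, at distances of 4.31 Mb (Krt10), 5.06 Mb (Krt15) and 5.13 Mb (Krt14), and KO against WT cannot be told apart from an effect of sequence linked to the floxed allele there.

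Keratin genes resemble each other, and only uniquely mapped reads were counted, so the sequences of 2 members decide what could be counted for them. Of the windows of 65 bases (the read length) in the transcripts of each gene, Krt5 shared 140 of 2133 (6.56%) with a gene at another place in the genome, mostly with Krt6a (120), and Krt14 shared 133 of 1692 (7.86%), mostly with Krt16 (120). Reads from these windows cannot be placed uniquely and are missing from the counts of Krt5 and Krt14. Krt15, Krt1, Krt10 and Krt2 shared 0 windows of this kind. The longest stretch in which Krt14 and Krt16 are identical, 134 bases in coding sequence of exon 1, is shown in capitals with 20 bases on each side in lower case (GRCm38, minus strand, Krt14 chr11:100206997-100207170, Krt16 chr11:100248456-100248629).
Krt14: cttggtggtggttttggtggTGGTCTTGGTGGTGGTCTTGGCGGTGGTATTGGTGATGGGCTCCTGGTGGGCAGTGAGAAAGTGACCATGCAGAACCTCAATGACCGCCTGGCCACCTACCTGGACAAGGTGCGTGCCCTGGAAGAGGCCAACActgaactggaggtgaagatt
Krt16: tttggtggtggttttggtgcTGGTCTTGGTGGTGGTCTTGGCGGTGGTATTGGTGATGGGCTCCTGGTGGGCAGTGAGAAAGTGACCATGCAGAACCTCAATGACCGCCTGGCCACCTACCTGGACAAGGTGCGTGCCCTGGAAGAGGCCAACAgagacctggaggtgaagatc

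Promoter sequence was at hand for Krt5, Krt10 and Krt2, which represent the top, the middle and the bottom of the range of levels described next. The 150 bases before each RefSeq start site (GRCm38.p6, minus strand) are chr15:101712906-101713055 for Krt5, chr11:99389365-99389514 for Krt10 and chr15:101818170-101818319 for Krt2. Capitals mark TATA-like letters and, in Krt10, a match to the C/EBP motif.
Krt5: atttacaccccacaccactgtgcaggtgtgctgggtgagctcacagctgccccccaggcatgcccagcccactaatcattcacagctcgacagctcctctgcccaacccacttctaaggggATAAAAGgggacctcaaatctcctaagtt
Krt10: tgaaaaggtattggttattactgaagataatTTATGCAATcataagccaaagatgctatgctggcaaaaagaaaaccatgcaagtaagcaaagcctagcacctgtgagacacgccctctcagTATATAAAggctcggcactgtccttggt
Krt2: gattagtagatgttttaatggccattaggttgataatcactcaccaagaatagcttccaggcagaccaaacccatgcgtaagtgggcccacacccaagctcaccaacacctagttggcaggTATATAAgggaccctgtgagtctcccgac
Krt5 holds ATAAAAG from 29 to 23 bases before the start, Krt2 holds TATATAA from 29 to 23, and Krt10 holds TATATAA from 28 to 22, which overlaps a TATAAA from 26 to 21. In the 250 bases before all RefSeq start sites, searched on both strands, TATAAA was found in 12.4% of 32851 windows, ATAAAAG in 4.83% and TATATAA in 3.04%. The last 2 spellings were chosen after the windows were read. The C/EBP letters TTNNGCAAT, at 119 to 111 bases in Krt10, were found in 1.93% of windows. The letters searched for AP-1 (TGANTCA, 6.75% of windows), the GC box (GGGCGG, 32.7%) and AP-2 (GCCNNNGGC, 13.7%) had no match in the 250 bases of these 3 genes. The RefSeq start of Krt14 lies 1518 bases inside the gene of the count table, so its window is not shown. Krt15 and Krt1 had no entry.

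The basal keratins were among the most abundant transcripts of these cells, and the suprabasal ones lay well below them. Per kilobase of the longest protein-coding transcript, Krt5 was the highest of 16556 protein-coding genes in all 6 libraries, Krt15 the next in all 6, and Krt14 was at rank 3 or 4, beside Eef1a1, a translation factor. Krt1 held ranks 136 to 185 and Krt10 ranks 131 to 218, whereas Krt2 held ranks 10978 to 12962. The 6 genes together took 3.17% to 4.59% of all counts in WT and 3.61% to 4.17% in KO.

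Krt5 stood at 10910, 6494 and 9545 CPM per kilobase in the 3 WT libraries (a, b, c) and at 8140, 9591 and 8737 in the 3 KO libraries. The values of KO lay inside the range of WT, whose highest and lowest points were WT a and WT b. Krt15 stood at 9094, 5764 and 7230 CPM per kilobase in WT and at 5657, 7350 and 6115 in KO, again with WT a highest and, in WT, WT b lowest. Krt14 stood at 3633, 3034 and 4090 CPM per kilobase in WT and at 4378, 4041 and 3800 in KO. The groups overlapped for all 3 basal genes.

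The spinous pair was present in every library at similar levels for both chains. Krt1 stood at 264, 335 and 350 CPM per kilobase in WT and at 362, 337 and 298 in KO. Krt10 stood at 228, 344 and 239 in WT and at 255, 255 and 317 in KO, with its highest value in WT b, the library in which Krt5 and Krt15 of the WT group were lowest. The antisense transcript Gm11940, which overlaps Krt10 and was counted apart from it by strand, had 178 to 268 counts per library, or 1.51% to 1.80% of the counts of Krt10.

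Krt2 was nearly absent. It had 31, 32 and 71 counts in WT and 9, 21 and 8 in KO, or 1.42, 1.47 and 3.13 CPM in WT and 0.383, 0.985 and 0.387 in KO. All libraries lay above the 3 counts taken as a floor (0.127 to 0.146 CPM), WT c was the highest, and the highest KO library lay below the lowest WT library.

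**Figure D1:**
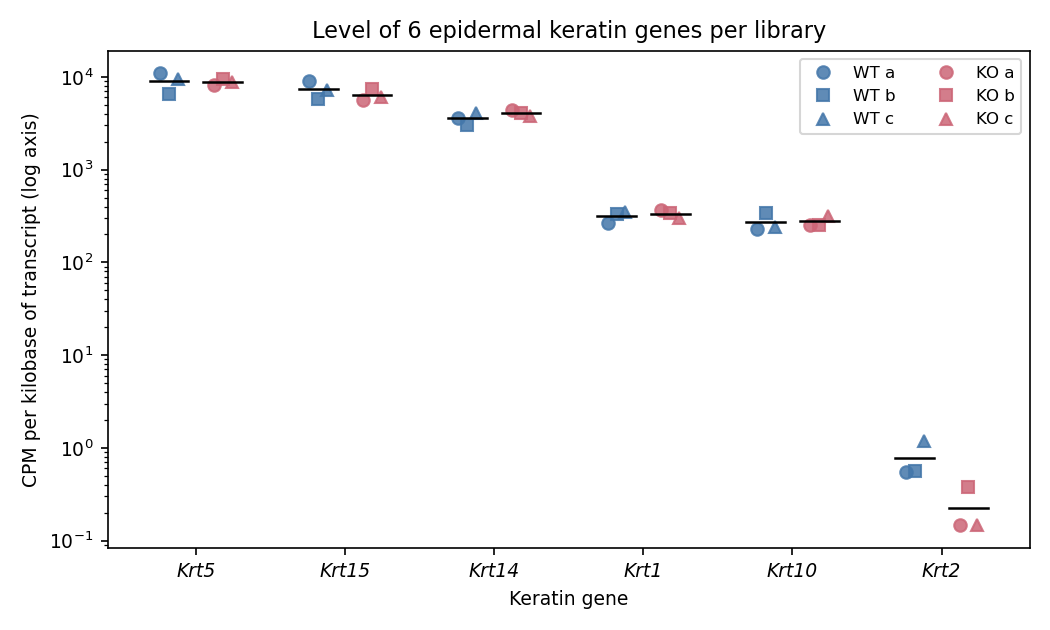
Level of each of the 6 keratin genes in CPM per kilobase of transcript (log axis) in the 3 WT and 3 KO libraries, with the group mean as a bar. Krt5, Krt15 and Krt14 lie between 3034 and 10910, Krt1 and Krt10 between 228 and 362, and Krt2 is the gene whose groups do not overlap.

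The order of the levels was Krt5, Krt15, Krt14, Krt1, Krt10, Krt2. Krt5 exceeded Krt15 per kilobase in 6 of 6 libraries, by 1.13 to 1.44 times, and Krt15 exceeded Krt14 in 6 of 6, by 1.29 to 2.50 times. The step from the basal to the spinous genes was the clearest among the first 5, with Krt14 at 9.05 to 13.8 times the level of Krt1. Krt1 and Krt10 could not be ordered, since Krt1 was higher in 4 libraries and Krt10 in WT b and KO c (ratio 0.939 to 1.47). Krt10 exceeded Krt2 by 199 to 2142 times.

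Spread between mice of 1 genotype was wide for most of these genes. The within-group SD of log2 CPM was 0.29 for Krt5, 0.27 for Krt15 and 0.26 for Krt10, at percentiles 91.8, 90.5 and 89.8 of 8497 genes with a mean log2 CPM above 4 and at least 10 counts in every library, whose median was 0.12. Krt1 (0.18, percentile 77.1) and Krt14 (0.17, percentile 72.4) varied less. The coefficient of variation of Krt5 was 25.2% among WT and 8.27% among KO mice. Krt2, with its few counts, had an SD of 0.72.

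Spinous relative to basal keratin counts were low in every mouse. Krt1 and Krt10 counts together came to 3.74%, 7.95% and 4.87% of those of Krt5 and Krt14 in the WT libraries (a, b, c), against 5.62%, 4.87% and 5.44% in the KO libraries. The WT mean was 5.52% ± 2.18 (SD, n = 3), the KO mean was 5.31% ± 0.39 (SD, n = 3), and the 3 KO libraries lay inside the range of WT. On the log2 scale KO minus WT was 0.01, with an SD of 0.55 among WT and 0.11 among KO mice. Without WT b the difference was 0.31 and the groups no longer overlapped, though WT c and KO b were nearly equal, and without WT a it was -0.23. It was -0.04 without WT c, -0.03 without KO a, 0.07 without KO b and -0.005 without KO c. Its direction thus changed with the mouse left out.

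The separate pairs gave the same picture of overlap. Krt10 was 7.76%, 14.0% and 7.19% of Krt14 in WT and 7.18%, 7.79% and 10.3% in KO (log2 difference -0.15), and Krt1 was 2.71%, 5.77% and 4.10% of Krt5 in WT and 4.97%, 3.93% and 3.81% in KO (0.07). WT b had the highest value of all 6 libraries in both pairs. Adding Krt2 to the spinous sum left the log2 difference at 0.01, adding Krt15 to the basal sum gave 0.09, and levels per kilobase gave 0.004. In bulk RNA, fewer cells of a layer and less RNA per cell of that layer cannot be told apart, so the ratio counts transcripts and not cells.

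**Figure D2:**
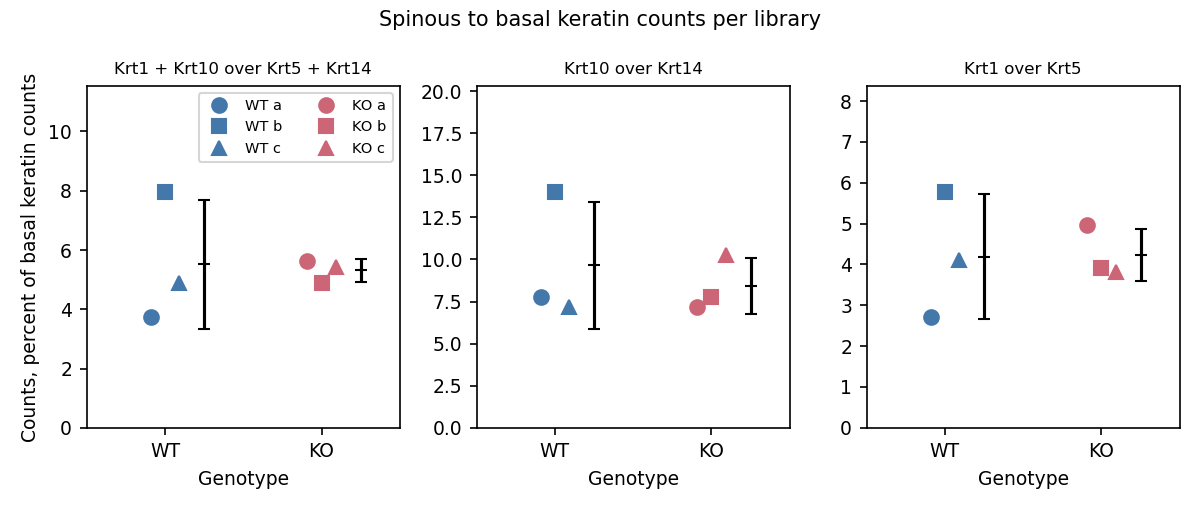
Spinous keratin counts as a percent of basal keratin counts per library, for the summed genes and for the type I and type II genes separately, with the group mean and SD beside the points (n = 3). WT b is the highest point in each panel (7.95%, 14.0% and 5.77%), and the groups overlap in all 3.

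WT b also held the highest levels of several later genes and the lowest of others, named here after their values were seen. Lor, a protein of the cornified envelope, was at 60.1 CPM in WT b against 8.44 and 10.6 in WT a and c and 1.49, 25 and 22.6 in KO. Krt77, a suprabasal type II keratin, was at 244 CPM in WT b against 24.2 and 95.7 in the other WT and 25, 71.9 and 94.9 in KO libraries. WT b was also the highest of all 6 libraries for Spink5 (219 CPM), Asprv1 (67.8), Cdsn (62.2), Hrnr (15.7), Flg2 (12.7), Aloxe3 (12.5) and Flg (12.4). Other genes of the spinous and granular layers went the other way. WT b was the lowest of all 6 libraries for Calml3 (553 CPM), Dmkn (907), Dsg1b (50.7), Cnfn (8.11), Tgm1 (13.8), Tgm3 (6.37) and Alox12b (3.71). The part of all these genes in the ratio of WT b was not tested.

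Among the basal keratins, Krt5 stayed in nearly constant proportion to the sum of Krt14 and Krt15, but not to Krt14 alone. Krt5 per kilobase was 0.858, 0.738 and 0.843 times the sum of Krt14 and Krt15 in WT and 0.811, 0.842 and 0.881 times in KO, a range of 1.19 times from lowest to highest, against 1.68 times for Krt5 in CPM. Against Krt14 alone it was 3.00, 2.14 and 2.33 in WT and 1.86, 2.37 and 2.30 in KO, a range of 1.62 times. Krt15 was 2.50, 1.90 and 1.77 times Krt14 in WT and 1.29, 1.82 and 1.61 times in KO (log2 difference -0.38), so KO a was the lowest and WT a the highest, and the groups overlapped. Over all keratin genes, type II came to 0.733 to 0.824 of type I in WT and to 0.785 to 0.810 in KO.

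The spinous pair was less even than Krt5 against the sum of Krt14 and Krt15. Krt1 per kilobase was 1.16, 0.974 and 1.47 times Krt10 in WT and 1.42, 1.32 and 0.939 times in KO, a range of 1.56 times. Krt2 was 0.206%, 0.167% and 0.342% of Krt1 in WT and 0.0404%, 0.112% and 0.0497% in KO, with every KO value below every WT value, as for Krt2 itself.

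**Figure D3:**
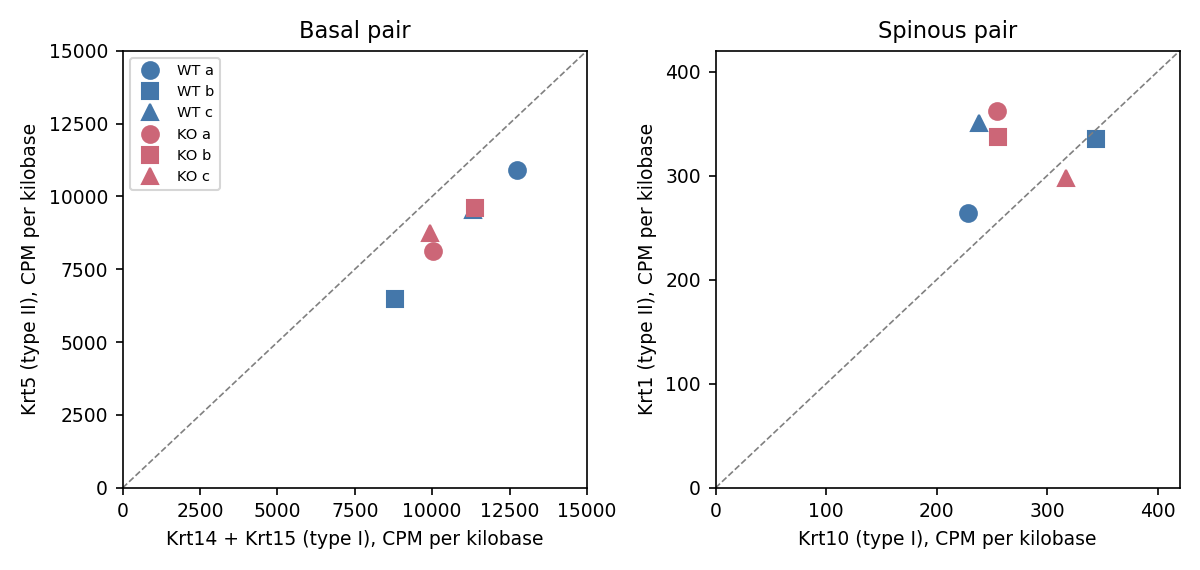
Type II against type I level in CPM per kilobase for the basal (left) and spinous (right) keratins, 1 point per library, with a dashed line at equal levels. All basal points lie below the line at ratios of 0.738 to 0.881, and the spinous points lie on both sides of it at 0.939 to 1.47.

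Of the 15 pairs of members, none had a correlation of log2 CPM over the 6 libraries that passed the adjusted threshold of 0.05, and 2 had an unadjusted exact permutation p below it (two-sided). The first of these was Krt5 with Krt15, with r = 0.858 (exact p = 0.0278, adjusted p = 0.239 over 15 pairs) and rho = 0.943 (exact p = 0.0167, adjusted p = 0.251). Their r was 0.939 on deviations from the group means and 0.992 without WT a and WT b. The other was Krt5 with Krt10, with r = -0.83 (exact p = 0.0319, adjusted p = 0.239) and rho = -0.714 (exact p = 0.136, adjusted p = 0.68), but without WT a and WT b r was -0.341, so this relation rests on those mice. The filament partners Krt5 and Krt14 had r = 0.517 (exact p = 0.283, adjusted p = 0.609) and rho = 0.0286 (exact p = 1.0, adjusted p = 1.0), and r was -0.40 without WT a and WT b. Krt1 and Krt10 had r = 0.11 (exact p = 0.858, adjusted p = 0.972) and rho = -0.0286 (exact p = 1.0, adjusted p = 1.0).

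For no basal or spinous keratin did the difference between KO and WT pass the test. edgeR called 0 of the 6 genes at an adjusted p below 0.05, beside 0.673% of all genes tested, and 1 of 6 (Krt2) had an unadjusted p below 0.05. By non-overlap of the groups the count was 1 of 6, beside 16.3% of all genes (8.03% with KO higher and 8.23% with KO lower), which is near that background. Limma-voom called 0 of 6 (24 over all genes) and DESeq2 called 1 (Krt2, with 546 over all genes). The share of all genes with an unadjusted p below 0.05 was not taken.

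For the basal genes the intervals of the edgeR fit bounded the difference. Their error draws on the variance of other genes too (11.63 degrees of freedom), not on these 6 mice alone. For genes of wide spread such as Krt5 (percentile 91.8) they can therefore be too narrow. Krt5 averaged 19740 ± 4970 CPM (SD, n = 3) in WT and 19380 ± 1602 in KO, a log2 fold change of -0.03 (SE 0.18, 95% interval -0.41 to 0.36, edgeR adjusted p = 0.978). Krt15 averaged 12520 ± 2837 CPM in WT and 10840 ± 1489 in KO, with -0.21 (SE 0.17, interval -0.58 to 0.16, edgeR adjusted p = 0.681). Krt14 averaged 6088 ± 899 CPM in WT and 6916 ± 493 in KO, with 0.18 (SE 0.13, interval -0.10 to 0.47, edgeR adjusted p = 0.647). None of the 3 intervals reached 1 or -1 on the log2 scale. The log2 value of Krt5 ran from -0.21 without WT b to 0.14 without WT a, and that of Krt15 from -0.36 to -0.02.

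The spinous genes were as close. Krt1 averaged 777 ± 113 CPM in WT and 816 ± 79.6 in KO, a log2 fold change of 0.07 (SE 0.12, 95% interval -0.20 to 0.34, edgeR adjusted p = 0.855). Krt10 averaged 566 ± 134 CPM in WT and 577.5 ± 75.1 in KO, with 0.03 (SE 0.15, interval -0.31 to 0.37, edgeR adjusted p = 0.966). Leaving out 1 library moved Krt1 between -0.04 and 0.15 and Krt10 between -0.08 and 0.24, the latter without WT b.

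Krt2 was the member with the largest difference and the fewest counts. Its KO mean of 0.585 ± 0.347 CPM (SD, n = 3) was 29.2% of the WT mean of 2.01 ± 0.97, and the log2 fold change was -1.78 (SE 0.45, 95% interval -2.77 to -0.78), with edgeR adjusted p = 0.113. The call changed with the processing. DESeq2 gave an adjusted p of 0.0345, beside 1.70% of its tested genes called lower in KO, and edgeR without WT a gave 0.0468, beside 1.22%. Over 11 alternatives the log2 value ran from -2.36 to -1.30 and the adjusted p from 0.0345 to 0.581, and the gene was not tested where at least 10 counts were required in every library. The summed fibroblast, bulge and endothelial markers were also lower in all KO libraries than in all WT libraries, as were 8.23% of single genes. Few genes made up most of each sum. Col1a1 averaged 85.4 CPM in WT and 37.5 in KO, and Col1a2 61.9 and 27.3. Postn averaged 5672 and 3186, and Tek 3.72 and 1.32. Single genes did not all follow these sums. The log2 fold change was above 0 for 3 of 6 fibroblast, 2 of 8 bulge and 2 of 4 endothelial genes. The part of these markers in the values of Krt2 was not tested.

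**Figure D4:**
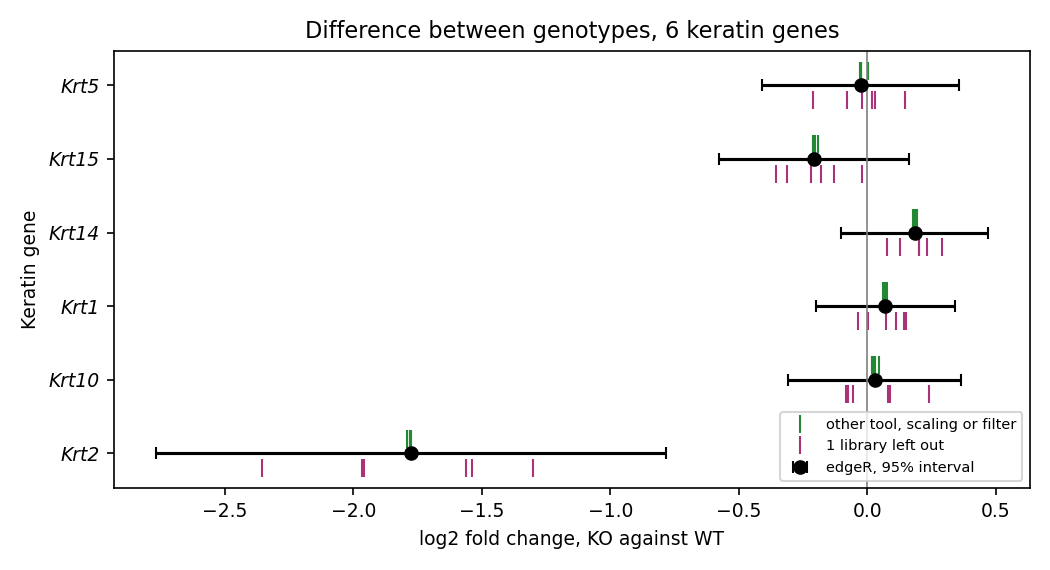
Log2 fold change of KO against WT for the 6 keratin genes by edgeR, with its 95% interval. Marks above each point are other tools, scalings or filters, and marks below it are fits with 1 library left out, and the interval of Krt2 (-2.77 to -0.78) does not include 0, unlike the other 5.

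Among the other keratins, which include those of stressed epidermis, hair follicles and simple epithelia, 4 genes rose in KO. Of 42 further keratin genes 40 had a count, and edgeR called 4 higher in KO (beside 0.461% of all genes) and 0 lower (beside 0.212%), with 24 above 0 and 16 below and a median log2 fold change of 0.23 against 8.82e-05 over all genes. The most abundant per kilobase were Krt17, Krt6a and Krt16, keratins that wounded or stimulated epidermis switches on. Krt17 stood at 2090, 2069 and 2076 CPM in WT and at 3874, 2710 and 3725 in KO, a log2 fold change of 0.73 (SE 0.13, edgeR adjusted p = 0.0409). Krt6a stood at 1565, 1219 and 1819 CPM in WT and 2679, 2180 and 2044 in KO (0.58, edgeR adjusted p = 0.122), and Krt16 at 352, 369 and 574 in WT and 873, 773 and 577 in KO (0.78, edgeR adjusted p = 0.0978). All 3 were higher in each KO than in each WT library, though for Krt16 KO c and WT c were nearly equal. Of the 40 genes, 6 lay higher in KO without overlap and 3 lower, beside 8.03% and 8.23% of all genes. Among these 3 stress keratins only Krt17 passed the test. Limma-voom called 0 of the 40, and edgeR called 0 of the 25 left by filterByExpr and 0 of the 21 with at least 10 counts in every library. DESeq2 called 8 (with 546 over all genes, against 24 by limma-voom), and edgeR called 0 without WT c, KO a or KO c.

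The other called keratins belong to the hair follicle and were rare. Krt25, a keratin of the inner root sheath, stood at 0.367, 0.641 and 0.176 CPM in WT and at 4.85, 1.31 and 6.92 in KO (log2 fold change 3.45, SE 0.59, edgeR adjusted p = 0.0256). Krt28, also of the inner root sheath, had a log2 fold change of 1.83 (edgeR adjusted p = 0.0461) and Krt35, a hair keratin, of 3.13 (edgeR adjusted p = 0.0462). In all 3 genes KO b was lowest of its group. Other follicle keratins were not called and did not share 1 direction. The log2 fold change was above 0 for Krt73 (1.07), Krt71 (1.06) and Krt27 (0.23), and below 0 for Krt32 (-0.32) and Krt74 (-0.79). Krt19, the gene that lends its promoter to the Cre, was at 4.77, 2.20 and 3.00 CPM in WT and 3.02, 2.96 and 2.23 in KO, far below the basal keratins in both groups.

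With these keratins counted in, the 6 epidermal genes made up 89.4%, 84.5% and 87.5% of all keratin counts in WT and 78.7%, 84.6% and 81.7% in KO, and the groups overlapped by 1 library. Krt1 and Krt10 alone made up 2.16%, 4.24% and 2.86% of keratin counts in WT and 3.08%, 2.76% and 3.05% in KO. All keratins together took 3.75% to 5.13% of all counts in WT and 4.59% to 4.92% in KO.

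**Figure D5:**
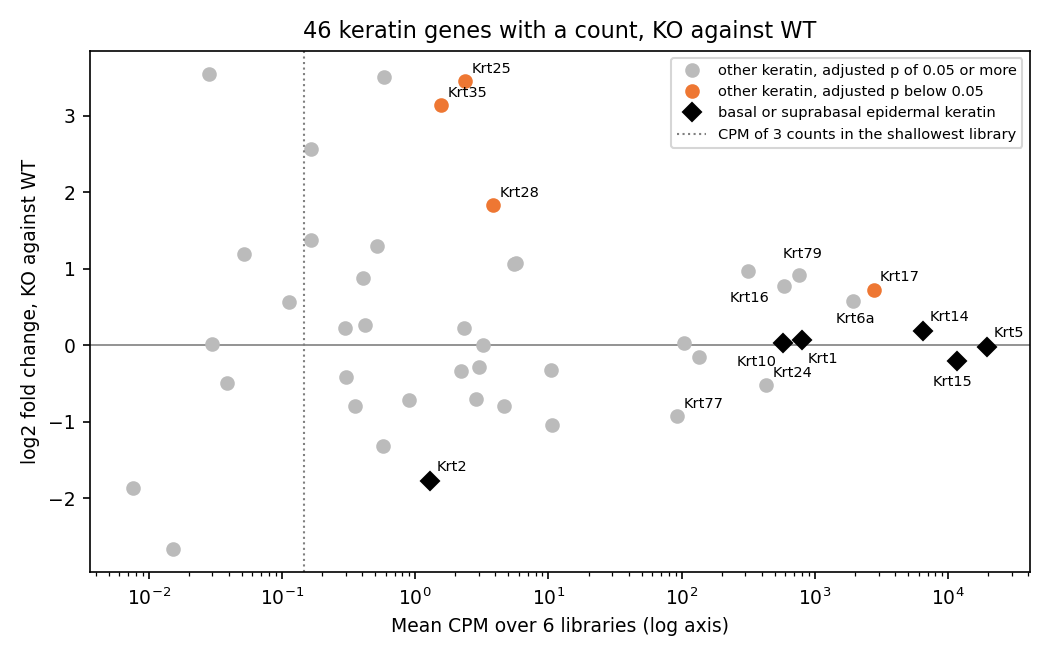
Log2 fold change of KO against WT and mean CPM over 6 libraries (log axis) for the 46 keratin genes with a count. The 5 abundant epidermal keratins lie between -0.21 and 0.18, Krt17, Krt25, Krt28 and Krt35 are the 4 called genes, and values left of the dotted line (3 counts in the shallowest library) rest on very few reads.

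Genes that accompany the keratins in each layer were read from lists, from the same edgeR fit. The lists were chosen with earlier results of these data known, so a count above the share of all genes is no independent support. Over all genes edgeR called 146, limma-voom 24 and DESeq2 546, so counts by these tools are not on 1 scale. The share of all genes with an unadjusted p below 0.05 was not taken, so counts at that threshold have no background here. Of 10 genes of the basal layer (integrins, hemidesmosome and laminin genes), 0 were called, and 2 had a fold change above 0 and 8 below, with a median of -0.13. By unadjusted p 3 of the 10 lay below 0.05, DESeq2 called 1 and limma-voom 0. Of 22 spinous and granular genes 2 rose in KO and 0 fell (beside 0.461% and 0.212% of all genes), 15 had a fold change above 0 and 7 below, 8 had an unadjusted p below 0.05, and the median was 0.27. These were Sbsn, a secreted suprabasal protein (495, 499 and 546 CPM in WT, 1029, 972 and 1003 in KO, log2 fold change 0.96, edgeR adjusted p = 0.00104), and Klk7, a protease of the shedding outer layer (63.5, 72.0 and 61.0 CPM in WT, 239, 128 and 129 in KO, 1.34, edgeR adjusted p = 0.0187). The other 20 did not pass, limma-voom called 1 of the 22 and DESeq2 4, and edgeR called 0 without WT c. Krt1 and Krt10, keratins of the same layers, had log2 fold changes of 0.07 and 0.03.

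Of 20 transcription factors and Notch pathway genes known to act on keratin genes, 1 rose and 0 fell (beside 0.461% and 0.212% of all genes), 18 had a fold change above 0 and 2 below, and the median was 0.30. The called gene was Cebpb, a C/EBP factor of differentiating keratinocytes, at 59.1, 59.2 and 47.7 CPM in WT and 95.2, 76.5 and 94.4 in KO (log2 fold change 0.68, SE 0.12, edgeR adjusted p = 0.026). Of the 20 genes 11 had an unadjusted p below 0.05, DESeq2 called 4, and limma-voom called 0, as did edgeR under both filters on low counts and without WT c, KO a or KO c. The most abundant, Trp63, the p63 factor that maintains basal keratinocytes, was at 1320, 1066 and 1238 CPM in WT and 1131, 1321 and 1201 in KO. Of 7 genes that anchor keratin filaments to desmosomes, 0 were called, with a median of 0.15, 1 had an unadjusted p below 0.05, and neither limma-voom nor DESeq2 called any. Of the 8 bulge genes 1 fell, Cd34, a surface protein of HB stem cells (881, 806 and 872 CPM in WT, 399, 624 and 526 in KO, log2 fold change -0.72, edgeR adjusted p = 0.0462), beside 0.212% of all genes. DESeq2 called 2 of the 8, limma-voom 0, and edgeR 0 without WT b, WT c, KO a or KO c. Of the fibroblast, immune, melanocyte and endothelial genes 0 were called by edgeR or limma-voom, 5, 0, 0 and 2 of them had an unadjusted p below 0.05, and DESeq2 called 2, 0, 0 and 1.

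Each keratin had its own closest followers by Pearson r of log2 CPM over the 6 libraries, among 8496 genes (8497 for Krt2), given as a description without a test. For Krt5 these were Kif26a (r = 0.995), Pcsk6 (0.994) and Recql (0.994), for Krt15 Tom1l2 (0.997), Bok (0.996) and Fance (0.995), and for Krt14 Aifm1 (0.986), Tmem97 (0.984) and Hnrnph2 (0.984). For Krt1 they were Pls3 (0.993), Capn10 (0.975) and Dgcr8 (0.972), for Krt10 Pbx2 (0.992), Rhbdf1 (0.987) and Tex264 (0.981), and for Krt2 Cnep1r1 (0.996), Slc20a2 (0.992) and Cc2d2a (0.991). No other keratin was among the 3 closest of any member. These are the highest of 8496 values over only 6 points, and they say nothing of a shared function.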

How the data were processed

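RNA was measured in 6 libraries of sorted keratinocytes. The deposited values are whole-number counts per gene and library, not normalized or pooled. The authors aligned strand-specific single reads of 65 bases with TopHat 2.1.0 and Bowtie 1.1 to GRCm38 and counted reads with a single mapping place per Ensembl gene, by strand, so bases shared by paralogs are undercounted. Columns carry the genotype but no sample number, and libraries were used as unnumbered replicates of it. All 6 columns were mapped.

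Genes with a count in at least 1 library (21681) were tested in R 4.3.3 with edgeR 4.0.16 (TMM, glmQLFit, glmQLFTest) for a difference between KO and WT, adjusted by Benjamini-Hochberg over all of them, at a threshold of 0.05. CPM used TMM-scaled library sizes, and lengths were those of the longest protein-coding transcript in GENCODE M21. The identifiers of 22039 of 22295 genes were in that annotation. Ratios used counts within a library. Correlations had exact permutation tests (scipy 1.17.1). Between 3 and 3 libraries such a test cannot give a p below 0.1. The alternatives were limma-voom (limma 3.58.1), DESeq2 1.42.0, library size only, scaling without keratin genes, filterByExpr, at least 10 counts in every library and each library left out. Spearman correlation was added after the data were seen. The scripts were tested on simulated data.

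Named are the 6 members, Itga3, the called genes of each list (up to 3 with the smallest p), the 3 genes most like each member, the 3 most abundant other keratins per kilobase, the most abundant marker of each cell type list, and genes sharing sequence with a member. Other genes were named after their values were seen. The members and lists were chosen with earlier results of these data known. Depth was 20578309 to 23670507 counts, with 3 counts (0.127 to 0.146 CPM) as the floor, which covers counting error only, since reads carried no molecular identifiers. 1 shared sequence is not reported here.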

Additional observations from a re-analysis of the deposited data

How the results depend on the processing

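With 3 mice per group, spread between mice set the precision of the abundant keratins, and Krt2 rested on 8 to 71 counts per library. The number of genes called over the whole table was 146 and moved to 24 with limma-voom, 546 with DESeq2, 15 with filterByExpr and 12 under the minimum of 10 counts per library, and ran from 5 (without WT c) to 521 (without WT a) when 1 library was left out, with 10 without KO a and 30 without KO c. Among the 6 keratins the count of 0 became 1 with DESeq2 and 1 without WT a (Krt2 in both), ran from 0 to 1 over the libraries left out, and was 0 under the other 10 alternatives. Genes called in the keratin, layer, regulator and anchorage lists numbered 7 of 99 and moved to 1 with limma-voom, 17 with DESeq2, 1 with filterByExpr and 1 with at least 10 counts, and ran from 0 (without WT c) to 10 (without WT a or KO b) when 1 library was left out, with 2 without KO a and 2 without KO c. The cause of these shifts was not tested. The spinous to basal ratio (log2, KO minus WT) ran from -0.23 (without WT a) to 0.31 (without WT b), against an SD of 0.55 among all WT and 0.11 among KO mice, and no pair of keratins passed by Pearson or Spearman correlation. No paired analysis was possible because the columns of the count table carry no replicate number.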
